A study of Mus musculus with 2 samples.

Results

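The insulin-like growth factor 1 (IGF1) axis was examined through 8 genes, comprising the ligand Igf1, its receptor Igf1r and the binding proteins Igfbp2, Igfbp3, Igfbp4, Igfbp5, Igfbp6 and Igfbp7. Their probes were found by the gene name on the array. On the array these genes were represented by 14 probes on 19 spots, of 55681 probes on 59305 non-control spots, and they were 8 of 24323 named genes. RNA came from the tooth and from the skin of wild-type mice on postnatal day 0 per the labels, and the study's methods name tooth germs and the following day. There was 1 one-colour Agilent array per tissue. The methods name C57BL/6J as the wild-type strain. The part of the body the skin came from and the number of animals per array are not given in the sources used here.

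IGF1 is a secreted growth factor that acts through the receptor tyrosine kinase Igf1r, which passes the signal to the insulin receptor substrates, the PI3K-Akt pathway and the MAP kinases. The high-affinity binding proteins hold IGFs in the extracellular space, prolong their life and limit or direct their access to the receptor, and proteases that cut the binding proteins release the ligand. Igfbp7 is a distant relative with low affinity for IGFs. In mineralizing tissues IGFs and their binding proteins are stored in the matrix, and in skin IGF1 from dermal cells acts on the hair follicle.

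Differences are given as skin minus tooth on the log2 scale, after each array had been shifted to its own 75th percentile (a signal of 428 for tooth and 276 for skin). A negative value therefore means a higher level in tooth. With no replicate array there was no spread between animals and no test was run. The ± beside a value is the error (SD) that the extraction software estimates for the spots, which covers the measurement of the spot and nothing of dissection, RNA preparation or biology. A level is relative to the 75th percentile of its own array, and levels of different probes are not compared because each probe binds with its own strength. Probes were well above background for 56.7% of 55675 probes in tooth and 52.5% in skin, and for 0 and 1 of 308 negative-control spots. The labelled tissues bore their markers. All 5 ameloblast genes were well above background in tooth and not in skin, whereas all 4 suprabasal keratinocyte and all 3 hair follicle genes were higher in skin.

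All 8 genes were well above background on both arrays by their brightest probe. Igfbp5, Igfbp3, Igfbp7 and Igf1r were at least 2-fold higher in tooth, and Igfbp6 alone was at least 2-fold higher in skin. Igfbp2, Igfbp4 and Igf1 stayed within 2-fold by this probe, although the other Igf1 probes did not. Thus 4 of the 8 genes were 2-fold higher in tooth, where 15.5% of the 17409 named genes measured were, and 1 of the 8 was 2-fold higher in skin, where 14.2% were. The median of the 8 differences was -1.05, and that of all named genes measured was -0.04, with quartiles of -0.58 and 0.47. The background itself depended on the scaling. The main scaling placed 2691 genes 2-fold higher in tooth and 2466 in skin, a shift to the median 3500 and 2020, and scaling to spike-in transcripts 5639 and 1573. Spike-in scaling lowered the median gene by -0.62, and with it 7 of the 8 genes were 2-fold higher in tooth.

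**Figure D1:**
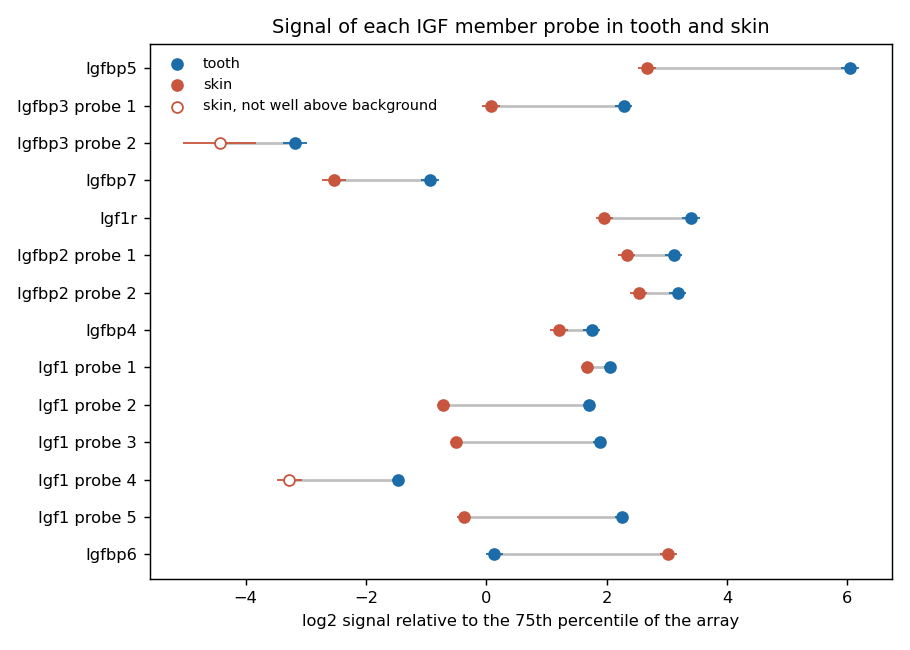
Level of every probe of the 8 genes on the tooth array (blue) and the skin array (red), as log2 signal relative to the 75th percentile of the array, with bars for the software's error and open circles for probes not well above background. Of the 14 probes, 13 were higher in tooth, and the Igfbp6 probe was higher in skin. Probes of 1 gene are numbered along the chromosome.

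Igf1 was measured by 5 probes with a pair of spots each, and these did not give 1 answer. The array assigns 1 probe to transcript variant 2 (NM_184052) and 4 probes to variant 1 (NM_010512). The first 30 bases of the variant 2 probe (mm9, chr10:87378456-87378515) and of the last variant 1 probe (chr10:87399581-87399640), both on the plus strand, are shown because the result turns on these probes, which lie far apart in the gene.

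Igf1 variant 2 probe, bases 1 to 30: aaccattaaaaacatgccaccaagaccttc

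Igf1 variant 1 probe, bases 1 to 30: ctcctgattgtatttgaagtggttattcaa

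The variant 2 probe gave signals of 1742 and 1804 on its tooth spots and 848 and 914 on its skin spots. After scaling, its tooth level of 2.05 and skin level of 1.67 differed by -0.38 ± 0.14. Thus by this probe Igf1 was 1.30-fold higher in tooth. The last variant 1 probe gave 2025 and 2038 on the tooth spots but 203 and 223 on the skin spots, so its level fell from 2.25 in tooth to -0.38 in skin. Its difference was -2.62 ± 0.15, or 6.17-fold higher in tooth. Before scaling, the tooth spots and the skin spots of each probe were well apart, but the arrays also differed in brightness (75th percentile 428 and 276).

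The other variant 1 probes were on the side of the last one. A pair of probes that share 40 bases (chr10:87393561-87393620 and chr10:87393581-87393640) gave -2.42 ± 0.15 and -2.39 ± 0.15, a difference of 5.34-fold and 5.24-fold. The remaining probe (chr10:87395924-87395983) was much dimmer, at -1.47 in tooth, and only 1 of its 2 skin spots was well above background. By its measured values it was 3.49-fold higher in tooth in the main setting, with skin spots of 20.2 and 40.5. With normexp correction, which adds an offset of 50 to every spot, its difference was -0.71, below 2-fold. Across the 3 variant 1 probes measured on both arrays, the difference was therefore lower than that of the variant 2 probe by 2.01 to 2.25. Over all 4 variant 1 probes, with the dim probe included, the error of this gap was at most 0.28. Scaling by 1 factor per array moves all probes alike and leaves this gap as it is. The variant 2 probe lies 15046 bases upstream of the first variant 1 probe, and its accession was not among those of the RefSeq table used for names.

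Disagreement of this size was uncommon on these arrays. Of 3995 named genes with at least 2 probes measured on both arrays, the median range of differences among the probes of a gene was 0.30 and its 90th percentile 1.04, and 84 genes (2.10%) had a range of at least the 2.25 of Igf1. A range tends to grow with the number of probes, and the genes were not matched for that number. Because the variant 2 probe was the brightest over both arrays, it stands for Igf1 wherever each gene is given by 1 probe. With the brightest variant 1 probe in its place, 5 of the 8 genes were 2-fold higher in tooth and the median of the 8 was -1.52.

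**Figure D2:**
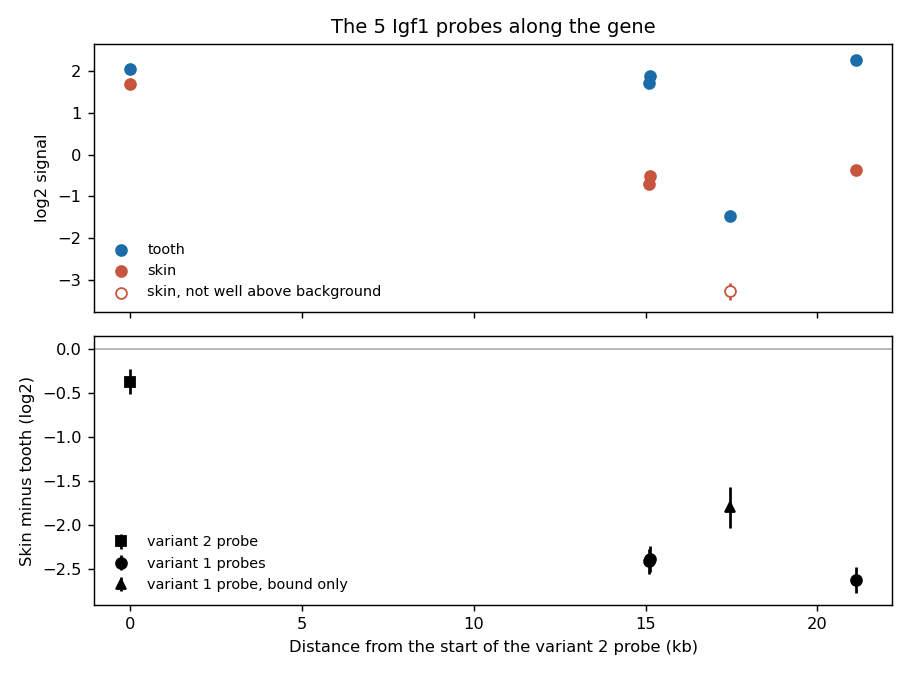
The 5 Igf1 probes by distance in kb from the variant 2 probe, with the log2 level on each array in the upper panel and the difference, skin minus tooth (log2), in the lower panel. Bars are the software's error, and the triangle (labelled bound only) marks the probe not well above background in skin, drawn at its measured value. The difference is -0.38 at the first probe and -2.62 at the last.

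Igf1r, the receptor, was represented by 1 probe (chr7:75378461-75378520, mm9). Its signal was 4530 in tooth and 1075 in skin before scaling, and its level 3.40 and 1.96. The difference of -1.44 ± 0.20 made it 2.72-fold higher in tooth, at percentile 10.3 of the differences of all named genes. Ligand by its variant 1 probes and receptor were thus both higher in the tooth RNA.

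Among the binding proteins, Igfbp5 had the largest difference. Igfbp5 binds to extracellular matrix and to mineral and is abundant in bone-forming cells. Its probe (chr1:72904829-72904888, minus strand) gave a signal of 28226 in tooth and 1757 in skin, with levels of 6.04 and 2.67. The difference was -3.37 ± 0.20, 10.4-fold higher in tooth, and 359 of the 17409 named genes had a lower value (percentile 2.06). Igfbp5 was well above background in skin too.

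Igfbp3, the main carrier of IGFs in the circulation and also a local product of many tissues, came next. Its brighter probe (chr11:7106594-7106653, minus strand) had levels of 2.28 and 0.08, from signals of 2080 in tooth and 291 in skin. The difference was -2.20 ± 0.21, or 4.61-fold higher in tooth. The other Igfbp3 probe, designed on an Ensembl transcript (chr11:7107949-7108008), was dim, with a level of -3.18 in tooth, and its skin spot was not well above background. Against the lowest well-above-background signal of the skin array, its level was higher in tooth by at least 1.46-fold. With normexp correction of the background and its offset of 50, however, its difference was -0.04.

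Igfbp7, the low-affinity relative that is prominent in blood vessels, had a dim probe (chr5:77778271-77778330, minus strand) with signals of 223 in tooth and 47.8 in skin. Its levels of -0.94 and -2.53 differed by -1.59 ± 0.25, or 3.01-fold. This value depended on how background was handled. Normexp models background and signal together and then adds an offset of 50 to every spot, which by itself shrinks the differences of dim probes. It gave -0.84, below 2-fold, and its steps were not run apart. The differences of Igfbp7 and Igf1r were 0.15 apart, which is within the error of 0.32 and gives them no order.

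Igfbp2 and Igfbp4 were higher in tooth by less than 2-fold. The probes of Igfbp2, a binding protein abundant in fetal tissues, gave like values. The brighter (chr1:72898813-72898872) had levels of 3.18 in tooth and 2.53 in skin, with a difference of -0.65 ± 0.20. The other (chr1:72898677-72898736) had a difference of -0.78 ± 0.20. Its sequence is shown since, read in the frame of its last codon, it runs without an earlier stop to the stop codon TAA in capitals, so that it covers the end of an open reading frame.

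Igfbp2 probe: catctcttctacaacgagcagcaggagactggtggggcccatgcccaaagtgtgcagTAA

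Igfbp4, an inhibitory binding protein that is cut by Pappa, had levels of 1.75 in tooth and 1.21 in skin (chr11:98913334-98913393) and a difference of -0.54 ± 0.20. The gap between Igfbp2 and Igfbp4 was 0.10, and that between Igfbp4 and the variant 2 probe of Igf1 was 0.17, both within their errors of 0.29 and 0.25. Under spike-in scaling Igfbp2 (-1.27), Igfbp4 (-1.17) and, narrowly, Igf1 were past 2-fold.

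Igfbp6 ran the other way. It binds IGF2 in preference to IGF1. Its probe (chr15:101979852-101979911) gave a signal of 470.0 in tooth and 2243 in skin, and levels of 0.14 and 3.02. The difference was 2.89 ± 0.20, or 7.40-fold higher in skin, and 844 named genes had a higher value (percentile 95.1). Under the alternatives tried, it lay between 2.26 and 2.93.

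**Figure D3:**
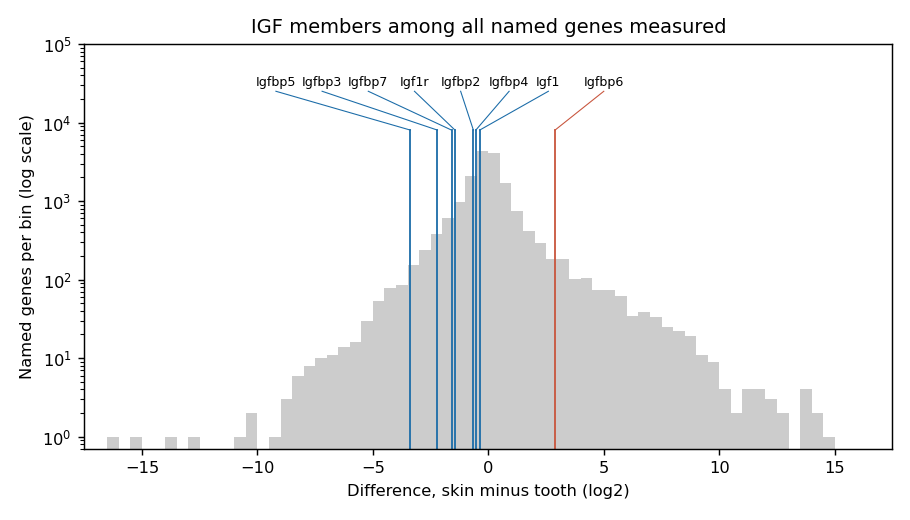
Number of named genes (log scale) in bins of 0.5 of the difference, skin minus tooth (log2), for the 17409 genes well above background on at least 1 array, dim values as measured. Lines mark the 8 genes by their brightest probe, blue where tooth was higher and red where skin was higher. Igfbp5 and Igfbp6 lie far out on opposite sides, and Igfbp2, Igfbp4 and Igf1 lie on the tooth side within 2-fold.

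Igfbp2 and Igfbp5 are neighbours on chromosome 1 that are transcribed toward each other, with 5957 bases between their closest probes in mm9. Their differences, -0.65 and -3.37, were nevertheless unequal. The sequences upstream of Igfbp5 and Igfbp6 are shown because these members had the largest difference in each direction. They are the 250 bases before the RefSeq start in GRCm38.p6, a later build than that of the probes, at chr1:72874866-72875115 on the minus strand and chr15:102143936-102144185 on the plus strand. Capitals mark matches, on either strand, to TATAAA or TATTTAA (forms of the TATA box), CCAAT or GGGCGG (a GC box).

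Igfbp5 upstream: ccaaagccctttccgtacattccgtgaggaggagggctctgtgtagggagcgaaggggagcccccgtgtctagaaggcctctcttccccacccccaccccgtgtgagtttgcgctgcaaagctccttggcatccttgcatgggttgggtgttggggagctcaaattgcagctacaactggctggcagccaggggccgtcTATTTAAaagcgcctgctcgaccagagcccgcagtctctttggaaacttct

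Igfbp6 upstream: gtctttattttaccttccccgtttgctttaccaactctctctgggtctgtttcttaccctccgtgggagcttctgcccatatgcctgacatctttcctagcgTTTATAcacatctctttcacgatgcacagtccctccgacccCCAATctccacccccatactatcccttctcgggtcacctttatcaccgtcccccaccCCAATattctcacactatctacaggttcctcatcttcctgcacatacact

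The Igfbp5 stretch held TATTTAA, which began 51 bases before the start, and none of the other motifs. TATTTAA was found in 4.18% of 32851 promoter windows of the same length. The Igfbp6 stretch held CCAAT at 2 places and TATAAA on the opposite strand, and CCAAT was present in 33.85% of windows and TATAAA in 12.4%. Its GC content was 49.6% and that of Igfbp5 58.8%. In contrast, the windows of Igf1r and Igfbp7 had a GC content of 77.6% and 74.0%, with GGGCGG at 2 and 4 places, a motif found in 32.7% of windows. The promoters therefore did not share 1 layout, also among the genes higher in tooth. These matches are letters in a window and were not tested for function.

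The other genes of the pathway were then compared, from lists of 52 genes. Of these, 48 were measured in tooth, skin or both, with 9 at least 2-fold higher in tooth, 4 in skin and 35 within 2-fold. These shares, 18.8%, 8.33% and 72.9%, stood beside 15.5%, 14.2% and 70.4% of all named genes measured, and the median was -0.11. Under spike-in scaling 19 were 2-fold higher in tooth and 1 in skin, and under normexp 2 were higher in skin.

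Of the other ligands, Igf2 was at 2.14 in tooth and 1.67 in skin, with a difference of -0.48 ± 0.20. Ins2 was at -1.01 and -1.08, and Ins1 did not rise well above background in either tissue. Among receptors, Igf2r, which clears IGF2, was at 2.62 in tooth and 1.63 in skin, just within 2-fold. The insulin receptor Insr differed by -0.47, and its other probes by -1.03 and -0.49. Insrr, an orphan receptor of the insulin receptor family, was higher in skin (1.73 ± 0.31), from -3.69 in tooth to -1.97 in skin. Insrr was the only gene of this list past 2-fold by its brightest probe.

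No other binding protein was well above background in both tissues. Igfbp1 and Igfals, which are mainly products of the liver, reached that level in neither. Igfbpl1, a protein related to the binding proteins, was at 2.19 in tooth. In skin it was not well above background. Against the lowest well-above-background signal of the skin array, the tooth level was at least 60.6-fold higher. This was the largest difference of the pathway lists.

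The proteases that cut binding proteins moved in both directions. Pappa2, which cuts Igfbp3 and Igfbp5, was at 1.03 in tooth and -1.84 in skin, with a difference of -2.88 ± 0.23. Pappa was dim and went the other way by a smaller amount (0.77 ± 0.23). Htra1, a secreted serine protease, was higher in skin (1.54 ± 0.20), from 3.49 in tooth to 5.04 in skin. Htra3 (-0.36) and Adam12 (0.53) were within 2-fold. Stc2, an inhibitor of Pappa, was detected only in tooth, at a level at least 2.61-fold higher by the same kind of bound. Stc1 was detected in neither tissue.

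Signalling genes within the cell came next. In the growth hormone arm, Socs2, a feedback inhibitor of growth hormone signalling, was lower in skin by all 3 probes measured on both arrays (-2.01 ± 0.07 by the brightest, -2.16 and -2.06 by the others). Stat5a was higher in skin (1.03 ± 0.21), and the receptor Ghr (-0.83), Jak2 (-0.12) and Stat5b (0.11) were within 2-fold. Of 10 substrates and adaptors, Grb10, an adaptor that restrains the receptor (-1.80 ± 0.21), and Irs2 (-1.35 ± 0.20) were higher in tooth. Irs1 differed by 0.34, and by 0.96 by its other probe. In the PI3K-Akt-mTOR arm, Foxo1 (-1.31 ± 0.20) and Pik3r1 (-1.10 ± 0.21) were higher in tooth and Pik3cb (1.57 ± 0.21) in skin. The kinases Akt1 and Akt2 differed by -0.37 and 0.47, with other probes of Akt2 between -0.35 and 0.79. The other probe of Foxo1 gave -1.22.

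**Figure D4:**
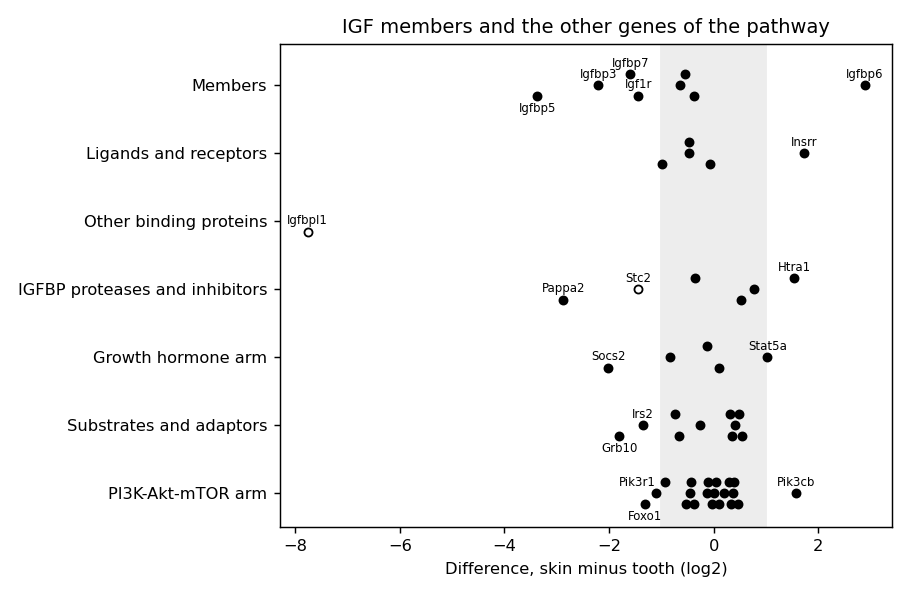
Difference, skin minus tooth (log2), of the 8 genes and of each list of other pathway genes, 1 point per gene by its brightest probe, with 1 gene of the PI3K-Akt-mTOR arm not shown. Open points are not well above background in skin, so their true distance is only bounded, and the grey band marks values within 2-fold. Igfbpl1, Igfbp5 and Pappa2 lie farthest to the tooth side and Igfbp6 farthest to the skin side.

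Whole tissues were compared, so fewer cells of a type and less RNA per cell cannot be told apart. Several marker lists moved with the genes that were higher in tooth. Of 5 fibroblast genes, Col1a1 (-3.17), Lum (-2.97) and Pdgfra (-2.43) were 2-fold higher in tooth, and Dcn (-0.93) and Col3a1 (0.13) were not. The summed level of this list was 9.56 in tooth and 7.60 in skin (log2). Such a sum adds the linear levels of different probes, so the brightest probes of a list weigh most. All 5 odontoblast and osteoblast genes were higher in tooth, with sums of 8.42 and -0.62, and Dspp, Dmp1 and Sp7 were not well above background in skin. The ameloblast sums were 11.1 and -3.39. Of the pericyte and smooth muscle genes 3 of 5 were 2-fold higher in tooth, with sums of 4.94 and 3.17. Of the endothelial genes 3 of 5 were as well, although the sums were 4.97 and 5.26. The probes of Kdr disagreed (0.43 and -2.19). With Igfbp6 moved the lists of suprabasal keratinocytes (sums of 2.58 in tooth and 11.9 in skin), hair follicle (1.12 and 9.32), adipocytes (0.84 and 3.92) and skeletal muscle (1.85 and 4.83), in which all genes were 2-fold higher in skin, and of 4 basal keratinocyte genes 2 were (9.11 and 10.3). The sums were higher in tooth for macrophage genes (4.71 and 4.09), red cell genes (6.54 and 5.32) and cartilage genes (1.89 and -1.61), and higher in skin for Schwann cell genes (-0.15 and 1.58). The part of these cell types in the values of the IGF genes was not tested.

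The 12 alternatives gave 96 values for the 8 genes, of which 44 were identical to the main value, since a filter or a choice of probe did not touch them, and bear on nothing. The other 52 kept their direction, and 31 of them moved by no more than the software's error of that gene. Most of the remaining 21 came from the median shift and the spike-in scaling, which move all genes together toward tooth. Under these the 7 genes higher in tooth could not reverse. The authors' table and the kept outlier spots add only 0.018 and 0.00018 to every gene, too little to reverse any of the 8. The kept direction of these values is therefore no test.

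**Figure D5:**
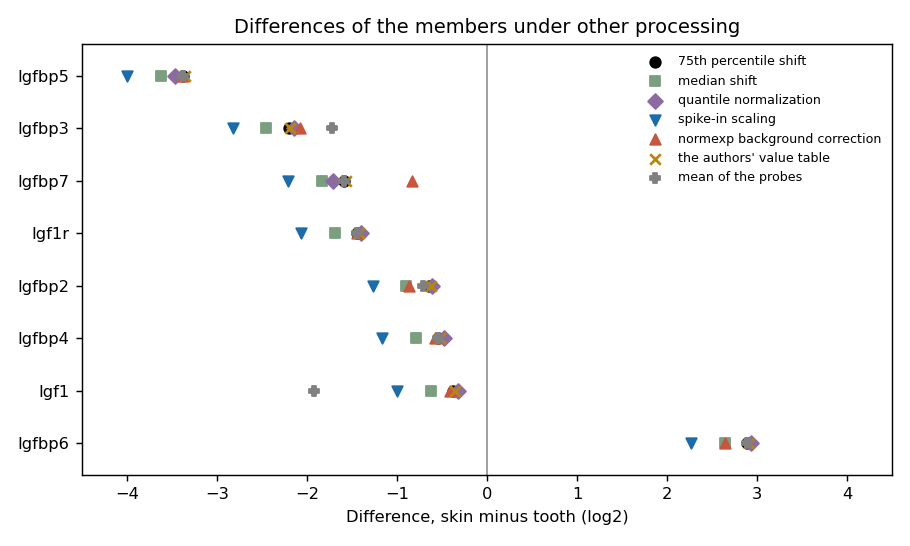
Difference, skin minus tooth (log2), of each of the 8 genes under the main 75th percentile shift and 6 of the alternatives, 1 symbol per setting. Points of a gene stay on 1 side of the zero line, spike-in scaling moves all genes toward tooth, normexp moves Igfbp7 to -0.84, and the mean of the probes moves Igf1 to -1.92.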

How the data were processed

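Total RNA of tooth and skin was hybridized to 1 one-colour array each (2 arrays, mm9 design). Deposited spot values were linear intensities from Agilent Feature Extraction 10.7.3.1, background-subtracted and detrended by the software, with surrogates for very dim spots. The authors' table held each intensity as a ratio to a single factor for each array (tooth 430.7, skin 274.5), not centred on any gene.

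Here outlier spots were left out, spots of a probe were averaged on the log2 scale, and each array's 75th percentile was subtracted. A probe was detected when the software called over 50% of its spots well above background. The probe brightest over both arrays stood for a gene. If 1 array was not well above background, the fold was taken against that array's lowest such signal, which gives a bound. Where the dim value itself was higher, it was used, and the fold is then the measured one. Because dim values above that signal occur, a bound is a convention and not a strict limit. Genes were called at 2-fold. Names came from RefSeq (GRCm38.p6) by accession for 27235 of 33184 named probes (82.1%), the array's own otherwise. Members were found by the array's gene name. Promoter sequences were those of RefSeq.

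The members, lists and tests were chosen with earlier results of these data known. The text names all members and, by fixed rule, ligands, receptors, binding proteins and proteases of the pathway, and signalling genes past 2-fold, of which 1 is not reported here; Ghr, Jak2, Stat5b, Irs1, Akt1 and Akt2 were added after their values were seen. The number of arrays limits the precision. The procedure was tested on simulated data. Python 3.11.15, pandas 2.3.3, R 4.3.3 and limma 3.58.1 (normexp offset 50, quantile normalization) were used. The exon or UTR under a probe was not analysed here.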

Additional observations from a re-analysis of the deposited data

Results flagged for a closer look

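The comparisons left out probes for long non-coding regions. Of these, 19 lay within 100 kb of the probes of the members, and 9 rose well above background in tooth, skin or both. Of all probes, 56.7% did so in tooth and 52.5% in skin, and of 308 negative-control spots 0 and 1. The share among all long non-coding probes was not computed. Of the 9, 8 were beside Igfbp6, with differences between -0.27 and 1.63. The ninth, 78.7 kb from the Igfbp5 probe, was detected in skin only and was at least 6.69-fold higher there (-4.90 in tooth, -1.77 in skin).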

How the results depend on the processing

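Under spike-in scaling 7 members were 2-fold higher in tooth, the members' median was -1.67, 5639 named genes were 2-fold higher in tooth and 1573 in skin, and of the pathway genes 19 were 2-fold higher in tooth and 1 in skin. A median shift gave a members' median of -1.29. The mean of the probes gave -1.52, and so did Igf1 by its variant 1 probes, an alternative chosen after seeing the data. Normexp correction gave 3 members 2-fold higher in tooth and a members' median of -0.85. It gave 1672 named genes 2-fold higher in tooth, and 2 pathway genes in skin. The differences of Igf1 ranged from -2.62 to -0.33 and those of Igfbp7 from -2.21 to -0.84. No member changed direction in the 52 values, of 96, that the 12 alternatives moved at all. Among these, the authors' table and the kept outlier spots add only 0.018 and 0.00018 to every gene. The median shift and the spike-in scaling move every gene toward tooth. Leaving out a replicate was not possible with 1 array per tissue. Signal over background limited the dim probes of Igf1, Igfbp3 and Igfbp7, which normexp with its offset of 50 moved to -0.71, -0.04 and -0.84.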

Other observations

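Within 100 kb of a member's probe, 22 other named genes had probes and 18 were measured, with a median difference of 0.15. Of these, Itgb7 (-2.33), an integrin chain of lymphocytes near Igfbp6, was 2-fold higher in tooth. Gjd3 (2.26) near Igfbp4, Adcy1 (1.17) near Igfbp3 and Soat2 near Igfbp6 (not well above background in tooth) were 2-fold higher in skin by their measured values. Thus 1 of the 18 was 2-fold higher in tooth and 3 in skin, where 15.5% and 14.2% of all named genes measured were. Polr2b, a subunit of RNA polymerase II on the strand opposite to Igfbp7 and with a probe next to its own, differed by -0.34.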
